A study of Mus musculus with 25 samples.

Results

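Mouse chromosome 6 held 4291 of the 65053 consensus ATAC-seq peaks of αTC1 and βTC6 cells, and all of them were taken, ordered by start position on the mm9 build. They were profiled as the ratio of βTC6 over αTC1 in 5 Mb bins and across mixtures of both lines. The chromosome was chosen by this ratio, and the comparison of the pure lines by ATAC-seq is therefore given as a description. A limma threshold over all peaks only sorts and names peaks there, with no p-value printed and nothing read from the counts. The mixtures hold cells of the same lines, so their values are given as a description too.

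The samples were alpha TC1 clone 6 (αTC1), a mouse glucagon-producing line, and beta-TC-6 (βTC6), a mouse insulin-producing line, both bought from a cell bank and untreated. Each is a line from an islet tumour of mice that carry the SV40 large T antigen, driven by the glucagon promoter for αTC1 and by the insulin promoter for βTC6, and each was grown in its own medium, so line, medium and islet cell type cannot be told apart. ATAC-seq was run on 5 αTC1 and 5 βTC6 libraries and on 9 mixtures that held from 10% to 90% αTC1 cells in steps of 10%, the rest being βTC6 cells, with 1 library per mixture. RNA-seq was run on 3 libraries of each line. Separate cultures are not mentioned for the replicates, and p-values then measure only the spread between these samples, which may be technical. Reads in peaks ranged from 6903416 to 8300868 in αTC1, from 4397851 to 10374903 in βTC6 and from 5277983 to 7294832 in the mixtures, of which chromosome 6 took 239036 to 768224 in the pure lines. RNA-seq libraries held between 21954031 and 26033482 expected counts. By RNA-seq, 6 of 6 alpha-cell markers had an FPKM of at least 1 in every αTC1 replicate and all 8 beta-cell markers did in every βTC6 replicate. Of the same lists, 4 of the 6 alpha-cell markers also reached this level in every βTC6 replicate, among them Gcg at 172 to 267 FPKM against 12113 to 14406 in αTC1, and 1 of the 8 beta-cell markers, Nkx6-1, in every αTC1 replicate at 13.3 to 14.1 against 56.6 to 66.7. Ttr, on the alpha-cell list, had 657 to 929 FPKM in αTC1 and 544 to 1580 in βTC6 and did not pass (edgeR adjusted p = 0.21). ATAC-seq replicates 4 and 5 stood apart from replicates 1 to 3 in both lines, with a chi-square per peak of 10.0 to 11.3 from them in αTC1 against 2.05 to 2.16 among replicates 1 to 3, and of 4.47 to 8.28 against 2.26 to 2.55 in βTC6. Replicates 4 and 5 also differed from each other, with 4.72 in αTC1 and 8.52 in βTC6, so they do not form a set of like libraries. The chromosome 6 median log2 ratio described below was -0.78 with replicates 1 to 3 only and -0.77 with replicates 4 and 5 only.

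In ATAC-seq a transposase inserts sequencing adapters into DNA that it can reach, so reads pile up over promoters and enhancers that are open. Bulk libraries cannot tell fewer cells of a kind from less signal per cell. Mouse chromosome 6 carries genes with known parts in islet cells, among them Iapp (islet amyloid polypeptide, co-secreted with insulin), Pax4 (a homeodomain factor of beta-cell specification) and Npy (neuropeptide Y), as well as the Hoxa cluster and the imprinted Peg10-Sgce and Mest domains.

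The peaks that differed most are shown first because they mark both directions of the ratio. Each line below is the central 200 bases of a peak, read 5′ to 3′ on the plus strand of NCBIM37, the assembly of mm9. The 3 peaks with the largest ratio toward βTC6 lie at chr6:9770742-9770941 (intergenic, with Nxph1 the nearest protein-coding gene), chr6:46364242-46364441 (intron of Cntnap2) and chr6:142230511-142230710 (intron of Slco1a5). The 3 with the largest ratio toward αTC1 lie at chr6:10640559-10640758 (intergenic, with Ndufa4 the nearest protein-coding gene), chr6:49046740-49046939 (intron of Igf2bp3) and chr6:39009768-39009967 (intron of Tbxas1). The last pair comes from stretches of consecutive αTC1-higher peaks, at chr6:100139440-100139639 near Rybp and chr6:140426731-140426930 near Plekha5. Capitals mark any match, on either strand, to CAGCTG (an E-box), TAATTA (a homeobox core), TGTTTAC (forkhead), TGACTCA (AP-1), TGACGTCA (CRE) or TGCTGAC (a MAF core).
βTC6 peak 1, Nxph1 side: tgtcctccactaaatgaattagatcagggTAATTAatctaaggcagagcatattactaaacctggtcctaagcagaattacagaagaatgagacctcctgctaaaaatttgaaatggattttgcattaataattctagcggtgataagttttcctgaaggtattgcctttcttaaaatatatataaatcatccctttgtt
βTC6 peak 2, Cntnap2 intron: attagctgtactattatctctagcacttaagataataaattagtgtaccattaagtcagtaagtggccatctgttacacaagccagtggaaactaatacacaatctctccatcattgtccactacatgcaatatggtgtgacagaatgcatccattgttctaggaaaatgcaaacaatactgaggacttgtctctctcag
βTC6 peak 3, Slco1a5 intron: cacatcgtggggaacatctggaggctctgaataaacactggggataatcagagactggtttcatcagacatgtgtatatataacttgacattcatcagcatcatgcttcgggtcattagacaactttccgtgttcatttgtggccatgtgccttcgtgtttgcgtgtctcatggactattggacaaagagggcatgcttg
αTC1 peak 1, Ndufa4 side: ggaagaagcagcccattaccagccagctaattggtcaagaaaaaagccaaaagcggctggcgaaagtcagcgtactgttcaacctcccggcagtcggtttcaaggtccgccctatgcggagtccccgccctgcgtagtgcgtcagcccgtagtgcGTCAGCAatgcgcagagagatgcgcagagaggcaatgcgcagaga
αTC1 peak 2, Igf2bp3 intron: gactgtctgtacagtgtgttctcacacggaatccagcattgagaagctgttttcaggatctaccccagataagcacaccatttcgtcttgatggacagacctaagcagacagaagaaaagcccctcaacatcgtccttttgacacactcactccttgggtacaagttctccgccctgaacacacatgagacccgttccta
αTC1 peak 3, Tbxas1 intron: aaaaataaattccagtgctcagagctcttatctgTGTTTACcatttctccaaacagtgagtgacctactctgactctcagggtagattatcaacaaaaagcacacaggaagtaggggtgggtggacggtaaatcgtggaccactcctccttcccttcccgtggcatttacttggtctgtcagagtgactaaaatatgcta
αTC1 stretch, Rybp side: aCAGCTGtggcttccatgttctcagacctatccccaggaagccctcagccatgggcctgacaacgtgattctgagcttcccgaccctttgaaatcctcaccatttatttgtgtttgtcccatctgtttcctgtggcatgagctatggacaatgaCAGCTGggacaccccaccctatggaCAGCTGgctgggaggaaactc
αTC1 stretch, Plekha5: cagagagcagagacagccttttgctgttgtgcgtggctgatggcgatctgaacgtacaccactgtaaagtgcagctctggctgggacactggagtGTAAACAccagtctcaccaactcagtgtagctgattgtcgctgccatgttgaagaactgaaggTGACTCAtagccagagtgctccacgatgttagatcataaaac
The window near Rybp holds 3 copies of the E-box and the Nxph1-side window holds 1 homeobox core, whereas 3 of the 8 windows hold no match to the letters searched. No matches overlapped each other in these windows.

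Over the central 200 bases of all 65053 peaks, 17.2% held the E-box, 6.93% the homeobox core, 6.31% the forkhead letters, 7.63% the AP-1 letters, 0.761% the CRE and 4.86% the MAF core. Over the 4291 chromosome 6 peaks the shares were 17.8%, 7.32%, 5.99%, 7.32%, 0.722% and 5.13% in the same order. Among the 489 chromosome 6 peaks called higher in αTC1, 32.9% held the E-box, 4.91% the homeobox core, 8.38% the forkhead letters, 12.1% the AP-1 letters, 0.613% the CRE and 6.34% the MAF core. Among the 258 called higher in βTC6 the shares were 13.2%, 13.95%, 10.1%, 3.49%, 0% and 5.43% in the same order. These are descriptions of letters in a window, not of bound sites. The windows of βTC6-higher peaks had a median GC content of 42.0%, those of αTC1-higher peaks 48.5%, all chromosome 6 peaks 47.5% and all peaks 48.5%.

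The log2 ratio of βTC6 over αTC1 was below 0 at most chromosome 6 peaks. The median log2 ratio of βTC6 over αTC1, on log2(normalized read count + 1), was -0.79 over the 4291 peaks, the lowest of the 21 chromosomes with peaks, next to -0.61 on chromosome 1, 1.54 on chromosome 14 and 0.0011 over all peaks. The log2 ratio was below 0 in 2863 chromosome 6 peaks (66.7%) and in 49.8% of all peaks. In 39 chromosome 6 peaks, and 512 of all, every library of the pure lines held 1 read, the lowest value in the table, so they carry the same ratio of 0.0011, which is also the median over all peaks. Without these peaks, a choice made after seeing the data, the medians were -0.81 on chromosome 6 and -0.0065 over all peaks. Of the 39, 20 lie in the 110 to 115 Mb bin, whose median went from -0.68 to -0.90 without them, and 12 in the 45 to 50 Mb bin, with -0.85 and -0.95. The 5 βTC6 libraries had chromosome medians of -0.79, -0.76, -0.78, -0.76 and -0.71 relative to the αTC1 mean, and the 5 αTC1 libraries lay between -0.00083 and 0.014. No βTC6 library overlapped the αTC1 libraries.

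Peaks were called, to sort and name them, at a false discovery rate (FDR) under 5% and an absolute log2 ratio over 2 (limma). As a description of the contrast that chose the chromosome, 489 chromosome 6 peaks (11.4%) were called higher in αTC1, where 5.38% of all peaks were, and 258 (6.01%) higher in βTC6, where 12.9% of all peaks were. The members closest to the threshold had log2 ratios of -2.0002 inside and -1.99 outside on the αTC1 side, and of 2.003 inside and 1.998 outside on the βTC6 side. Counts depend on the scale. With a pseudocount of 5, 60 peaks were called toward βTC6 (2.56% of all peaks were) and 150 toward αTC1 (1.26% of all). By edgeR on the recovered reads the counts were 445 (21.2% of all) and 778 (8.82% of all), and after quantile normalization 179 (8.69% of all) and 686 (7.88% of all). Peaks within 2 kb of a transcription start site (promoter peaks, 778) had a median of -1.09 with 79.6% below 0, while the 3513 distal peaks had a median of -0.67 with 63.9% below 0. Over all chromosomes the medians were -0.31 for promoter peaks and 0.18 for distal peaks.

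The lower ratio was spread along the chromosome and was broken by a few stretches. Of 30 bins of 5 Mb, holding between 48 and 193 peaks, 25 had a median log2 ratio below 0, and 15 lay between -1.3 and -0.8. The 3 lowest bins were 90 to 95 Mb (-1.28 over 179 peaks), 70 to 75 Mb (-1.28 over 126 peaks) and 85 to 90 Mb (-1.27 over 175 peaks). The 3 highest were 60 to 65 Mb (1.06 over 110 peaks), 105 to 110 Mb (0.74 over 130 peaks) and 15 to 20 Mb (0.70 over 161 peaks), as the plot of the ratio along the chromosome shows. In 22 bins the median of every βTC6 library lay below that of every αTC1 library, and in 3 bins above. Counts over the bins of other chromosomes are not given here, so these bin counts are not read as particular to chromosome 6.

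**Figure D1:**
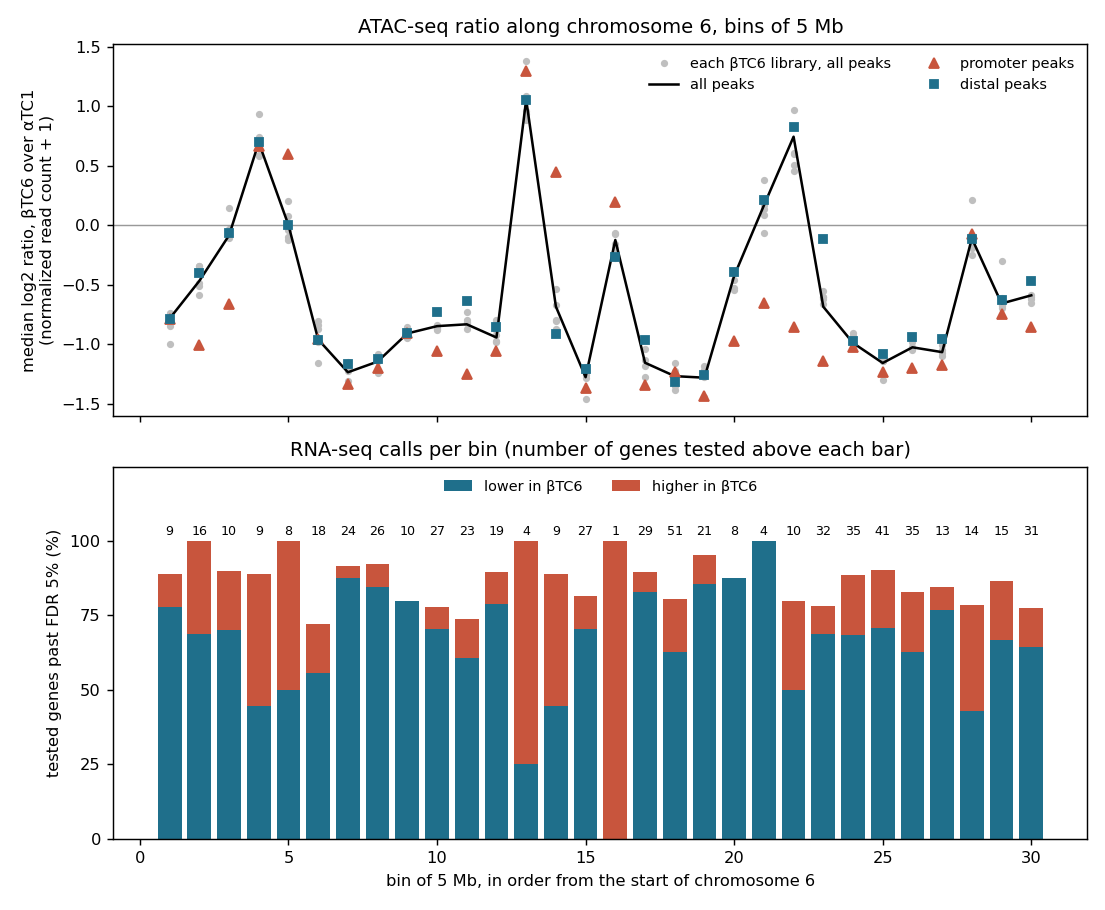
Upper panel: median log2 ratio of βTC6 over αTC1 of the ATAC-seq peaks in each 5 Mb bin of chromosome 6, in order along the chromosome, for all peaks (line), promoter peaks (triangles) and distal peaks (squares), with each βTC6 library as a grey point relative to the αTC1 mean. Lower panel: percent of the tested genes of each bin that passed an FDR of 5% in RNA-seq, lower (blue) or higher (red) in βTC6. 25 of the 30 bins sit below 0 in the upper panel.

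In the 60 to 65 Mb bin the 5 βTC6 libraries had medians of 0.89, 1.08, 0.94, 0.96 and 1.38, and in the 90 to 95 Mb bin -1.21, -1.28, -1.24, -1.44 and -1.19. βTC6 replicate 5 was the highest in both of these and also in the 15 to 20 Mb bin, at 0.93 against 0.58 to 0.74 in the others. It was the highest in the 105 to 110 Mb bin too, at 0.96 against 0.45 to 0.61. In the 70 to 75 Mb and 85 to 90 Mb bins it was the lowest, at -1.46 and -1.38. Bins with a larger share of promoter peaks had lower medians (across 30 bins, Pearson r = -0.71 and Spearman rho = -0.75, given as a description since the bins come from the same libraries).

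Promoter and distal peaks of a bin did not always point the same way. In the 105 to 110 Mb bin the 12 promoter peaks had a median of -0.86 while the distal peaks stood at 0.82, and in the 100 to 105 Mb bin the 9 promoter peaks stood at -0.66 and the distal ones at 0.21. In the 15 to 20 Mb bin both were above 0, at 0.66 for 18 promoter peaks and 0.70 for distal peaks. The 60 to 65 Mb bin had 7 promoter peaks with a median of 1.29 and distal peaks at 1.05. In the 65 to 70 Mb bin the 9 promoter peaks stood at 0.45 and the distal peaks at -0.91.

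Runs of called peaks on other chromosomes are not given here. On chromosome 6 called peaks formed 3 runs of at least 5 consecutive peaks, and in all of them the peaks were higher in αTC1. The longest, 6 peaks over 58.8 kb at chr6:100096286-100155092 with Rybp (a Polycomb cofactor) as the nearest gene, averaged 48.1 ± 3.20 (SD, n = 5) normalized reads in αTC1 and 9.06 ± 1.23 in βTC6. A run of 5 peaks at chr6:126464853-126504243 covers Kcna5 (a voltage-gated potassium channel) and averaged 14.7 ± 2.33 in αTC1 against 0.867 ± 0.355 in βTC6. A run of 5 peaks over 7.38 kb at chr6:140425672-140433056 lies in Plekha5 (a pleckstrin homology protein), and averaged 33.2 ± 1.02 against 4.32 ± 0.391. In the mixtures with 10%, 50% and 90% αTC1 cells, the Rybp-side run averaged 15.5, 29.7 and 45.5 normalized reads. Over the 9 mixtures Pearson r with the αTC1 percentage was between 0.989 and 0.993 for the 3 runs, a direction that their choice from the same lines had fixed.

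The mixtures were made of cells of the same lines, so the direction of each change across them follows from the difference between the lines by which the chromosome, runs and peaks were chosen, and is no independent support. The share of reads in peaks that fell on chromosome 6 was 8.63%, 8.62%, 8.61%, 9.25% and 9.39% in the αTC1 libraries and 5.35%, 5.44%, 5.35%, 5.70% and 5.89% in the βTC6 libraries. In the mixtures it rose at every step, from 6.38% at 10% αTC1 cells through 7.94% at 50% to 9.31% at 90%. Over the 9 mixtures Pearson r was 0.991 and Spearman rho 1.0, as a description. Without the mixtures at 10% and 90%, r was 0.987 over 7 mixtures. The chromosome 1 share also rose (r = 0.996) and the chromosome 14 share fell (r = -0.990). Shares of 1 library add up to the whole, so chromosomes do not move independently.

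One peak weighed on these shares. The peak at chr6:103599051-103599284, 234 bases in an intron of Chl1 (a neural adhesion molecule), had 1322, 1308 and 1370 normalized reads in αTC1 replicates 1 to 3, but 17221 and 14573 in replicates 4 and 5. In βTC6 it had 815, 1179 and 778 in replicates 1 to 3, and 6060 and 4089 in replicates 4 and 5. In the mixtures it went from 5483 at 10% to 16803 at 90% αTC1 cells. Replicates 4 and 5 of each line thus stood above replicates 1 to 3 of the same line, and why was not tested. Of its 205 stretches of 30 bases, 0 occur in the mouse mitochondrial genome.

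With the peaks over 4000 normalized reads in any library left out, a choice made after seeing the data, the chromosome 6 share was 8.65% ± 0.0625 (SD, n = 5) in αTC1 and 5.40% ± 0.126 in βTC6. It rose from 6.02% at 10% αTC1 cells to 8.47% at 90%, with r = 0.996. All 9 mixtures stood above the straight line between the means of the pure lines, by 0.139 to 0.422 percentage points. Read as a cell percentage on that line, they stood 4.28 to 12.9 points above the percentage mixed, with a median of 9.18. On the same measure chromosome 1 stood a median of 7.87 points above, and chromosome 14, whose share falls with αTC1 cells, a median of 2.82 points above the percentage mixed, with 6 of 9 mixtures above that percentage. With all peaks the chromosome 6 gap was 14.8 to 28.9 points. The line means there include replicates 1 to 3 of each line, which had fewer reads in the Chl1 peak than the 10% and 90% mixtures. The part of this in the gap was not tested.

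**Figure D2:**
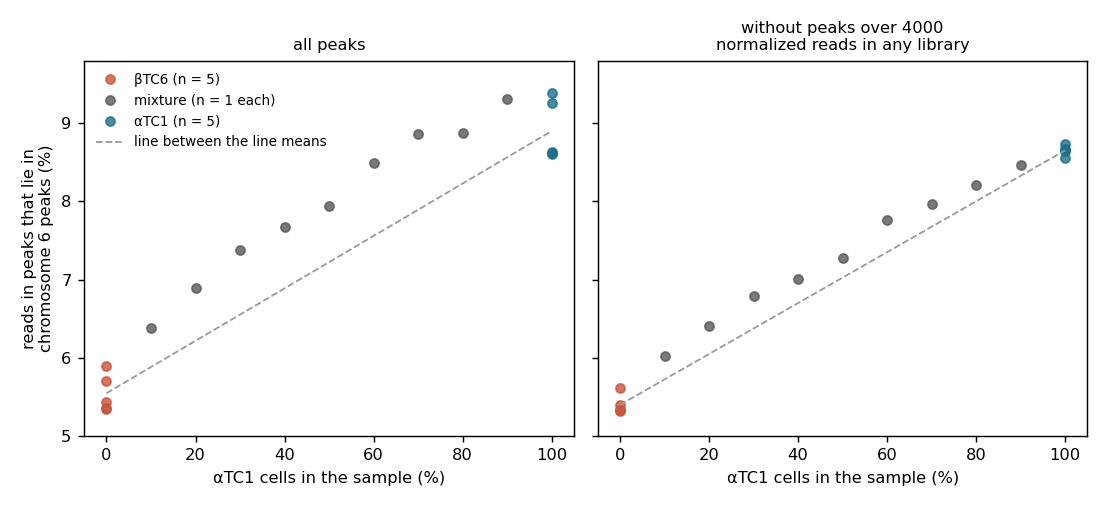
Percent of reads in peaks that lie in chromosome 6 peaks (vertical axis) against the percent of αTC1 cells in the sample (horizontal axis), with all peaks (left) and without peaks over 4000 normalized reads in any library (right). Points are single libraries, and the dashed line joins the means of the 5 βTC6 and 5 αTC1 libraries. All 9 mixtures lie above the line in both panels.

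The bins moved with composition in both directions. As a description over the 9 mixtures, Pearson r between the share of reads in a bin and the αTC1 percentage was above 0 in 25 of the 30 bins and below 0 in 5. The 5 were 15 to 20 Mb (r = -0.982), 20 to 25 Mb (r = -0.928), 60 to 65 Mb (r = -0.988), 105 to 110 Mb (r = -0.470) and 135 to 140 Mb (r = -0.326). Without the peaks over 4000 normalized reads, r in the last pair of these was 0.271 and 0.543, with the opposite sign. The 100 to 105 Mb bin, which contains the very high Chl1 peak, had r = 0.936, and 0.159 without the peaks over 4000 normalized reads. Leaving these peaks out changes both the bin and the total, so the part of the Chl1 peak in this was not tested.

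In the 90 to 95 Mb bin the median log2 difference from the αTC1 mean was -1.14 in the mixture with 10% αTC1 cells, -0.45 at 50% and 0.0047 at 90%. The 60 to 65 Mb bin went the other way, from 1.09 at 10% through 0.58 at 50% to 0.12 at 90%. Both ended close to the αTC1 libraries at 90%.

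**Figure D3:**
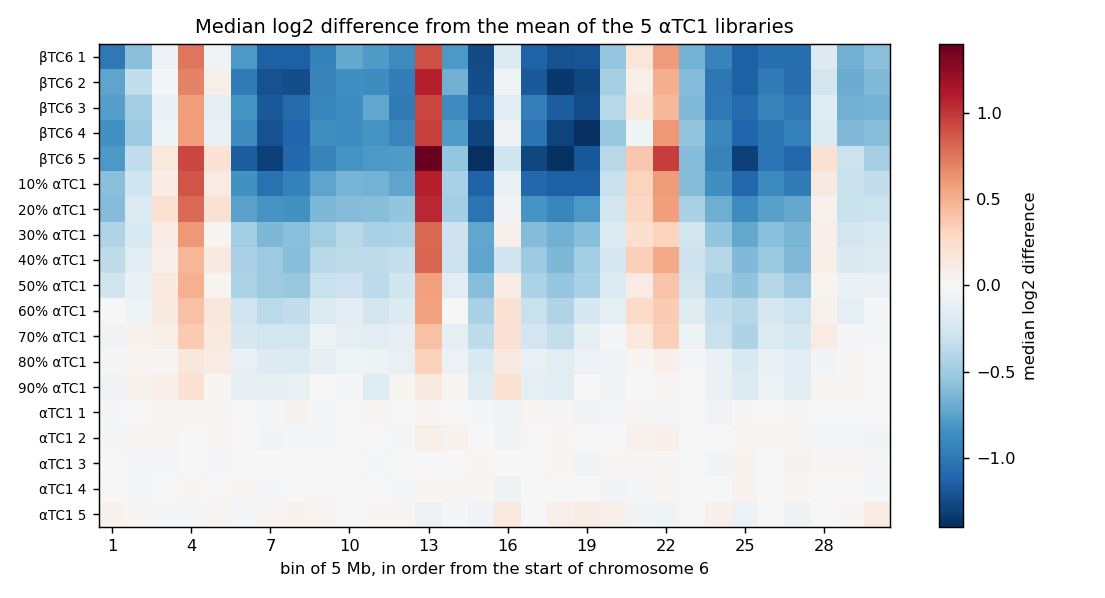
Median log2 difference of each library (rows) from the mean of the 5 αTC1 libraries in each 5 Mb bin of chromosome 6 (columns, in order along the chromosome), blue below 0 and red above. Rows run from the 5 βTC6 libraries through the mixtures with rising αTC1 percentage to the 5 αTC1 libraries, and between the 10% and 90% mixtures the value goes from -1.14 to 0.0047 in bin 19 and from 1.09 to 0.12 in bin 13, while bins 3, 5, 16 and 28, close to 0 in βTC6, show no such fading.

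Values of single named peaks across the mixtures are descriptions as well. The βTC6-higher peak near Nxph1 (chr6:9770393-9771290) had 80.2, 76.3, 70.3, 84.3 and 85.4 normalized reads in βTC6 and 3.92, 3.79, 4.06, 4.09 and 4.48 in αTC1. It fell from 77.9 at 10% αTC1 cells to 39.0 at 50% and 9.75 at 90% (r = -0.981). The groups did not overlap, and each αTC1 value rested on 27 to 31 reads.

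The Slco1a5 peak (chr6:142230130-142231090), in an intron of an organic anion transporter gene and upstream of Iapp, had 64.3, 72.4, 57.0, 71.9 and 70.7 normalized reads in βTC6 and 3.09 to 3.96 in αTC1. It fell from 74.6 to 8.33 between the 10% and 90% mixtures. The Cntnap2 peak (chr6:46363824-46364859) had 34.6 to 45.2 in βTC6 and 0.420 to 2.46 in αTC1. A peak in an intron of Ptprz1 (chr6:22887298-22888059), a receptor tyrosine phosphatase, had 49.6 to 74.4 and 1.91 to 4.36. The peak nearest to Shfm1 (chr6:6486760-6487580) had 75.8 normalized reads in βTC6 replicate 5 and 44.9 to 47.7 in the other βTC6 libraries, against 2.24 to 2.87 in αTC1.

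Of the αTC1-higher peaks, the one at chr6:10640212-10641105 had 63.2, 61.8, 56.4, 56.6 and 62.3 normalized reads in αTC1 and 0.205 to 0.845 in βTC6, where it rested on 1 to 9 reads. Its ratio is therefore set by a line close to the floor of the table, which holds no 0. It rose from 8.74 at 10% αTC1 cells to 59.1 at 90% (r = 0.977). The Igf2bp3 peak (chr6:49046225-49047454), in the gene of an RNA-binding protein of fetal and tumour tissue, had 67.6 to 74.7 in αTC1 and 0.282 to 3.14 in βTC6. The Tbxas1 peak (chr6:39009354-39010381), in the thromboxane synthase gene, had 64.0 to 71.9 and 0.426 to 2.43. A peak in an intron of the kinase gene Dyrk4 (chr6:126858200-126859249) had 51.0 to 61.6 and 0.282 to 2.28, and 1 nearest to Chchd6 (chr6:89555891-89556515) had 43.5 to 63.7 and 0.845 to 2.14. Over the mixtures the 5 αTC1-higher peaks had r between 0.938 and 0.977 and the 5 βTC6-higher peaks between -0.981 and -0.967, as their choice fixed.

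Most chromosome 6 genes were also lower in βTC6 by RNA-seq. Of 579 chromosome 6 genes tested with edgeR, 399 (68.9%) were lower in βTC6 at an FDR under 5%, where 36.0% of all 12195 tested genes were, and 94 (16.2%) were higher, where 38.7% were. The median log2 fold change of βTC6 over αTC1 was -0.76 on chromosome 6, the lowest of the 20 chromosomes with tested genes, against 0.0094 over all tested genes and -0.67 on chromosome 1. With an absolute log2 fold change over 2 added, 63 genes (10.9%) were lower in βTC6 (4.08% of all genes) and 44 (7.60%) higher (10.2% of all genes). When libraries were scaled to the ERCC spike-ins, 221 chromosome 6 genes were lower at the same FDR, where 11.8% of all genes were, and 57 higher, where 17.5% were.

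Chromosome 6 took 5.96%, 5.93% and 5.83% of the expected counts in the αTC1 replicates and 4.58%, 4.90% and 4.44% in the βTC6 replicates. The replicates of the lines did not overlap, and the 2-sided exact permutation p was 0.10, the smallest that 3 against 3 can give. In 25 of the 27 bins with at least 5 tested genes the median RNA fold change was below 0. The bin medians of ATAC-seq and RNA-seq over these 27 bins had Pearson r = 0.434 and Spearman rho = 0.340, as a description. In the 60 to 65 Mb bin 3 of the 4 tested genes were higher in βTC6 and 1 lower, while in the 90 to 95 Mb bin 18 of 21 were lower and 2 higher.

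Of 557 tested chromosome 6 genes with a peak within 2 kb of an annotated start, 377 (67.7%) had a promoter ratio below 0 and RNA lower in βTC6 at an FDR under 5%, where 33.2% of 11524 such genes of all chromosomes did. The ratio was above 0 and the RNA higher for 42 (7.54%, against 18.1% of all), below 0 with RNA higher for 47 (8.44%, against 20.5%) and above 0 with RNA lower for 7 (1.26%, against 2.59%). The RNA of the other 84 (15.1%, against 25.6%) did not pass. Both measures are shifted below 0 on this chromosome. The median promoter log2 ratio of these genes was -1.19 and the median RNA log2 fold change -0.76. Across genes, which are not independent replicates, Pearson r was 0.716 and Spearman rho 0.425. Most points lie at the lower left of the plot of promoter ratio against RNA.

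**Figure D4:**
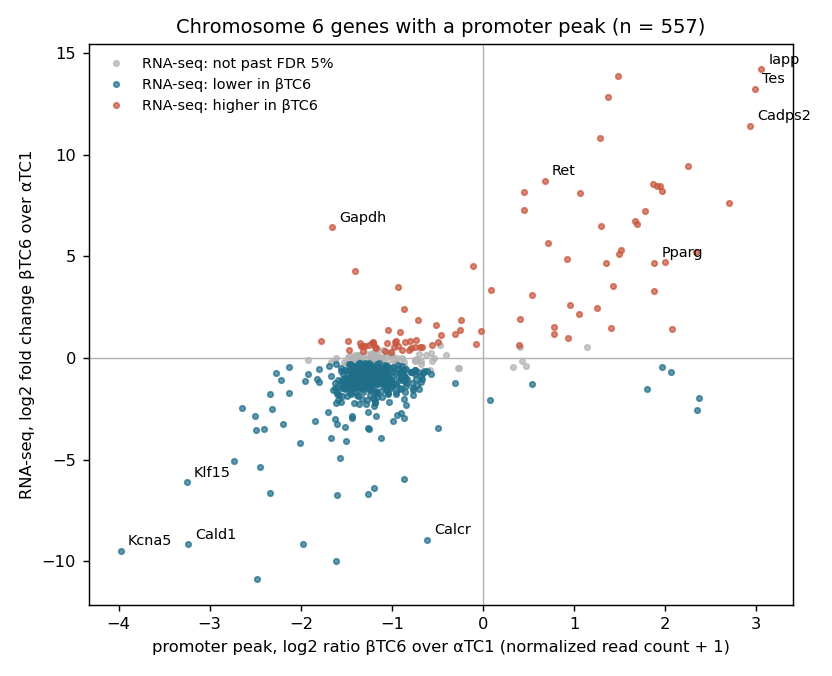
RNA-seq log2 fold change (vertical axis) against the log2 ratio of the promoter peak (horizontal axis), both βTC6 over αTC1, for 557 chromosome 6 genes, coloured by the RNA-seq call at an FDR of 5%. 425 genes lie at the lower left, 44 in the upper right and 78 in the upper left, with a lower promoter peak and higher RNA. Gapdh is among these 78, and so is Podxl2 (promoter -1.41, RNA 4.29).

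In what follows, a pair of values given without the line's name has the line named first in the sentence first, or αTC1 first where no line is named, and the ± values are SD over 3 replicates for FPKM and 5 for normalized reads. The lists were chosen with earlier results of these data known, and their counts are descriptions, to be read beside the chromosome 6 counts that follow. A gene passed the expression filter if it reached an FPKM of 1 in every replicate of either line, so a gene expressed in 1 line only had to differ, and its call carries no weight in a count. Of the 579 tested chromosome 6 genes 52 passed through αTC1 alone and 42 through βTC6 alone, against 585 and 1187 of all 12195 tested genes. Of the 485 that passed in both lines 352 were lower in βTC6 and 53 higher, against 3877 lower and 3566 higher of 10423 such genes of all chromosomes. Keeping to both lines removes genes that changed most, so for each list these counts account for the members and nothing is read from them. Of 13 listed peptides and hormones, Iapp, Npy and Tac1 passed the filter, Iapp and Tac1 through βTC6 alone and Npy, higher in βTC6, in both lines. Iapp (ENSMUSG00000041681, chr6:142246943-142252481), the amylin gene, had FPKM values of 10407, 13162 and 8725 in βTC6 and of 0.67, 0.91 and 0.20 in αTC1 (edgeR log2 fold change 14.20, SE 0.38). Its promoter peak had 44.7 ± 4.05 (SD, n = 5) normalized reads in βTC6 and 4.54 ± 0.862 in αTC1. Npy had 1146, 1326 and 1591 FPKM in βTC6 and 2.56 to 4.69 in αTC1 (log2 fold change 8.55, SE 0.23, edgeR adjusted p = 7.5e-09), with 19.3 ± 1.87 and 4.56 ± 0.561 normalized reads at its promoter. Tac1, the tachykinin precursor, had 1.37 to 2.06 FPKM in βTC6, and 2 counts in all in αTC1. The Reg genes of the exocrine pancreas were below the filter, with FPKM of at most 0.05 on average in either line.

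Of 10 tested receptors, 2 passed the filter through αTC1 alone and 3 through βTC6 alone, and of the other 5 the RNA was lower in βTC6 for 3, higher for 1 and not past the FDR for 1. Ret, the receptor of GDNF-family ligands, had FPKM values of 10.5, 7.77 and 7.79 in βTC6 and 0.01 to 0.03 in αTC1, where it rested on 7 counts in all. Its promoter peak had 6.94 ± 2.31 normalized reads in βTC6 and 3.88 ± 1.06 in αTC1. Met, the hepatocyte growth factor receptor, had 2.32 to 4.27 FPKM in βTC6 and at most 0.05 in αTC1 (4 counts in all), with 38.0 ± 1.56 and 9.15 ± 1.03 normalized reads at its promoter. Calcr, the calcitonin receptor, which binds amylin with RAMP partners, had 12.9, 13.1 and 7.56 FPKM in αTC1 and at most 0.06 in βTC6, where it rested on 5 counts in all. The orphan receptor Gpr162 had 30.3 ± 0.280 FPKM (SD, n = 3) in αTC1 and 0.940 ± 0.193 in βTC6. Oxtr, the oxytocin receptor, had 50.4 ± 0.679 FPKM in αTC1 and 36.2 ± 9.21 in βTC6 and did not pass (edgeR adjusted p = 0.055), but it did with DESeq2, with the lower filter, with the replicate block and without βTC6 replicate 2.

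Among ion channels and transporters 9 were tested, of which 3 passed the filter through αTC1 alone and 1 through βTC6 alone, and of the other 5 the RNA was lower in βTC6 for 4 and higher for 1. Cacna1c, the pore-forming subunit of an L-type calcium channel, had 50.2 ± 3.14 FPKM in αTC1 and 12.5 ± 1.61 in βTC6 (edgeR log2 fold change -1.86, SE 0.09, adjusted p = 1.7e-07). The glucose transporter Slc2a3 had 22.6, 22.9 and 49.9 FPKM in αTC1 and 2.44 to 2.86 in βTC6. Kcna5, in the run described above, was at 0 counts in all βTC6 libraries and at least 30.9-fold higher in αTC1, against a floor of 3 counts per library. The potassium channel Kcnd2 was at 0 counts in αTC1 and at least 73.8-fold higher in βTC6. The taurine transporter Slc6a6 was higher in βTC6 (29.4 ± 3.98 and 20.4 ± 0.483 FPKM) although its promoter peak had 16.7 ± 2.69 normalized reads in βTC6 and 42.9 ± 2.25 in αTC1, and its RNA call was lost with ERCC scaling.

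Of 17 tested transcription factors 5 passed the filter through αTC1 alone and 2 through βTC6 alone, and of the other 10 the RNA was lower in βTC6 for 9 and higher for 1. Among all 17, those higher in βTC6 were Pax4 (0 counts in αTC1, at least 27.8-fold higher), Pparg, a nuclear receptor of lipid metabolism (10.9 ± 1.24 FPKM in βTC6 against 0.440 ± 0.120 in αTC1), and Foxp2 (4.44 ± 1.25 in βTC6 against 1.54 ± 0.219 in αTC1). The Pax4 promoter peak had 40.6 ± 11.4 normalized reads in βTC6 and 7.61 ± 1.16 in αTC1, and that of Pparg 36.1 ± 4.84 and 9.10 ± 1.57. Gata2, a zinc-finger factor of blood and neural lineages, had 9.90, 10.7 and 8.37 FPKM in αTC1 and 0.16, 0.07 and 0.05 in βTC6 (edgeR log2 fold change -6.62, SE 0.27). Klf15, a regulator of glucose and amino acid metabolism genes, had 8.82, 8.15 and 7.02 FPKM in αTC1 and 0.06 to 0.14 in βTC6, with 67.2 ± 3.87 and 6.29 ± 1.61 normalized reads at its promoter. Sox5 fell by 5.97 and Vax2 by 5.36 on the log2 scale. Neurod6, a neuronal bHLH factor, had 1.33 to 1.81 FPKM in αTC1 and 0.02 to 0.09 in βTC6. Foxm1, a driver of mitotic genes, had 100 ± 17.8 and 47.7 ± 1.70 FPKM.

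The Hoxa cluster, whose homeodomain factors pattern the body axis, had 4 of 11 members past the expression filter, each of them through αTC1 alone. Hoxa6 had 7.76, 8.77 and 4.92 FPKM in αTC1 and 0 counts in βTC6, which makes it at least 82.5-fold higher in αTC1. Hoxa5 and Hoxa10 were at 0 counts in βTC6 and at least 60.2-fold and 44.0-fold higher in αTC1, and Hoxa9 had 3.21 to 3.31 FPKM in αTC1 and 3 counts in all in βTC6.

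Of 9 tested imprinted genes 4 passed the filter through αTC1 alone and 1 through βTC6 alone, and of the other 4 the RNA was lower in βTC6 for 3 and higher for 1. Peg10, a paternally expressed retrotransposon-derived gene of the placenta, had 35.9, 37.7 and 64.8 FPKM in αTC1 and 0.38 to 0.66 in βTC6 (edgeR log2 fold change -6.68, SE 0.35). Its divergent partner Sgce (epsilon-sarcoglycan) had 29.1 ± 2.12 FPKM in αTC1 and 2.59 ± 2.29 in βTC6, with βTC6 replicate 1 at 5.17 and the others at 0.77 and 1.84. They share a promoter peak of 7.62 ± 1.30 and 2.89 ± 1.48 normalized reads. Mest (5.49 ± 0.799 and 0.560 ± 0.157 FPKM) and Copg2 (74.5 ± 8.62 and 21.1 ± 0.816) overlap at their 3′ ends and were counted with RSEM at default settings, which use no strand, so their reads may be shared. Asb4, an ankyrin repeat protein, was higher in βTC6, at 3.27 ± 1.03 against 0.727 ± 0.332 FPKM.

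Of 14 tested metabolic enzymes 2 passed the filter through αTC1 alone, and of the other 12 the RNA was lower in βTC6 for 9, higher for 1 and not past the FDR for 2. The glycolytic enzymes Tpi1 and Eno2 had 1041 ± 247 and 213 ± 131 FPKM in αTC1, and 210 ± 28.2 and 44.0 ± 5.54 in βTC6. αTC1 replicate 3 was the highest in both, at 1326 and 364 FPKM. Tpi1 has near-identical processed copies, so its level is uncertain. Ldhb, a lactate dehydrogenase subunit, had 66.1 ± 8.58 and 9.09 ± 3.51 FPKM. Hk2, a hexokinase, had 1.28 to 2.94 FPKM in αTC1 and 1 count in all in βTC6. Gapdh was the exception, at 32.1, 29.0 and 42.9 FPKM in αTC1 and 1195, 1480 and 1584 in βTC6 (edgeR log2 fold change 6.44, SE 0.19, adjusted p = 1.3e-08), although its promoter peak had 63.7 ± 2.61 normalized reads in αTC1 and 19.6 ± 2.42 in βTC6. Gapdh has many near-identical processed pseudogenes, among which reads can be split, so its level is uncertain. Bpgm (12.9 ± 0.734 and 11.1 ± 0.777 FPKM) and Gfpt1 (58.4 ± 1.59 and 53.7 ± 9.97 FPKM) did not pass, although their promoter peaks had log2 ratios of -1.35 and -1.46.

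All 16 tested genes of the cell cycle and growth signalling passed the filter in both lines, and 15 were lower in βTC6 and 1 higher. Of the chromosome 6 genes that passed in both lines, 352 of 485 were lower and 53 higher. Over all chromosomes 3877 of 10423 such genes were lower and 3566 higher. The median log2 fold change of the 16 was -0.98, and -0.76 over all 579 tested genes of the chromosome. The kinase gene Braf had a log2 fold change of -0.96, and its call was lost with ERCC scaling. Ezh2, the Polycomb methyltransferase, had 101 ± 2.95 FPKM in αTC1 and 37.7 ± 1.57 in βTC6, and the replication helicase subunit Mcm2 157 ± 16.2 and 68.8 ± 2.65. The stress gene Gadd45a had 274 ± 2.04 and 55.7 ± 3.88 FPKM. Ccnd2, the D-type cyclin, was higher in βTC6, with 14.5, 25.3 and 10.1 FPKM against 6.16, 6.27 and 9.13, while its promoter peak stood at 9.36 ± 1.78 normalized reads in βTC6 and 18.3 ± 1.86 in αTC1.

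Of 12 tested genes of secretion and adhesion 4 passed the filter through βTC6 alone, and of the other 8 the RNA was lower in βTC6 for 4, higher for 3 and not past the FDR for 1. Vamp8, a SNARE of granule exocytosis, had 49.5 ± 3.22 FPKM in βTC6 and 1.52 ± 0.456 in αTC1 (log2 fold change 5.10, SE 0.19, edgeR adjusted p = 4.7e-08). Cadps2, a priming factor of dense-core vesicles, was at 0 counts in αTC1 and at least 111-fold higher in βTC6, with 48.7 ± 5.03 normalized reads at its promoter in βTC6 and 5.77 ± 1.92 in αTC1. Vamp1, another vesicle SNARE, was lower in βTC6 (3.16 ± 0.450 FPKM, against 14.5 ± 1.39 in αTC1). Atp6v1e1, a proton pump subunit, had 202 ± 16.9 FPKM in αTC1 and 212 ± 18.6 in βTC6 and did not pass.

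Among called genes with an FPKM of at least 5 in every replicate of the higher line, those with the largest fitted fold changes were Iapp, Rps4y2, Tes, Prmt8 and Ret toward βTC6, and Cald1, Calcr, Peg10, Gata2 and Pde3a toward αTC1. Tes, a focal adhesion protein, was at 0 counts in αTC1 and had 20.1, 23.2 and 17.1 FPKM in βTC6, at least 396-fold higher. Prmt8, a neuronal arginine methyltransferase, was at 0 counts in αTC1 and at least 295-fold higher in βTC6. Rps4y2, a single-exon ribosomal protein S4 copy, was at least 611-fold higher in βTC6, but near-identical copies make its count uncertain. Cald1, caldesmon, had 98.0 to 102.0 FPKM in αTC1 and 0.12 to 0.22 in βTC6 (edgeR log2 fold change -9.17, SE 0.16), with 103 ± 5.09 and 10.0 ± 0.737 normalized reads at its promoter. Pde3a, a phosphodiesterase of cyclic nucleotides, had 37.1 ± 4.77 and 0.457 ± 0.112 FPKM.

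**Figure D5:**
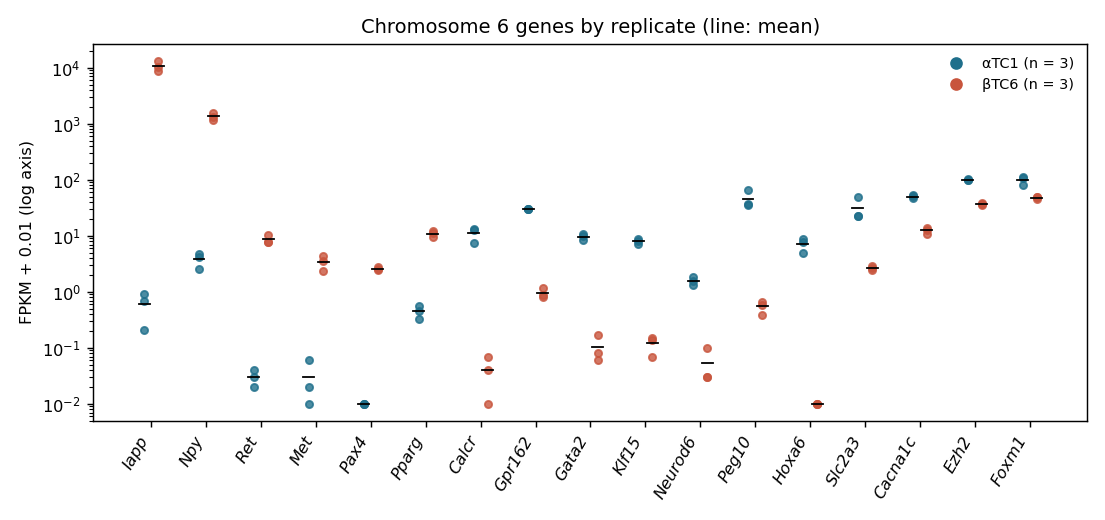
FPKM + 0.01 on a log axis of 17 named chromosome 6 genes in each RNA-seq replicate (points, n = 3 per line) with the mean as a bar, αTC1 in blue and βTC6 in red. Iapp spans from below 1 in αTC1 to at least 8725 in βTC6, while the lines lie closer together for Ezh2 and Foxm1.

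Markers of other cells on chromosome 6 were few. Of 12 acinar, blood and vessel genes 4 passed the filter, 1 of them through αTC1 alone, and of the other 3 the RNA was lower in βTC6 for 1, higher for 1 and not past the FDR for 1. The tetraspanin Cd9 had 28.2 ± 3.23 FPKM in βTC6 and 13.3 ± 0.918 in αTC1. Over the whole genome, summed FPKM of the 7 acinar markers was 3.58 to 3.75 in αTC1 and 0.490 to 1.23 in βTC6, with Prss1, Prss2 and Ptf1a at 0 in all libraries. Sums for the 3 endothelial, 4 immune and 3 mesenchymal markers were at most 0.290, 2.26 and 1.31 in any library, and for the 4 ductal markers 6.96 to 14.4. Of the 3 delta-cell markers Rbp4 had 1240 to 1678 FPKM in αTC1 and 183 to 258 in βTC6, Sst was at 0 in αTC1 and at 207 to 325 in βTC6, and Hhex had at most 0.13. The sums of the 3 were 1240 to 1679 and 423 to 508. The PP marker summed to 0.09 to 0.10 and 3.70 to 50.8, and the epsilon marker to at most 0.880. Their part in the chromosome 6 values was not tested.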

How the data were processed

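For ATAC-seq the authors trimmed reads (Trimmomatic 0.32), aligned them to mm9 (BWA 0.7.9a), removed duplicates (Picard 1.95), called peaks per library (MACS2 2.1.0), merged them (DiffBind 2.2.5) and deposited a signal per peak, the TMM-normalized read count. All values (100%, tolerance 0.02) were whole multiples of 1 read, so reads were recovered. For RNA-seq the authors deposited RSEM 1.2.12 expected counts, rounded here, and FPKM values from the same run. The authors' own peak classes by line were not used, and 0 sample columns were left unmatched.

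Peaks were compared with limma 3.58.1 on log2(normalized read count + 1), and genes that reached an FPKM of 1 in every αTC1 or every βTC6 replicate with edgeR 4.0.16 (glmQLFit, glmQLFTest, TMM), R 4.3.3, Benjamini-Hochberg FDR under 5%. DESeq2 1.42.0 was an alternative. The authors scaled RNA-seq by spike-ins with RUVSeq, which was not available here, so plain ERCC scaling was an alternative. Mixture bins were sorted by a permutation p from all orders of the 9 mixtures. Python 3.11.15 with pandas 2.3.3 was used, and matplotlib 3.10.9 for plots. Positions came from GENCODE vM1 on NCBIM37, whose chromosome 6 has 149517037 bases, and 67 of 24439 gene identifiers were absent from it. Promoter peaks in ATAC-seq counts use the deposited distance to the nearest start.

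Members and gene lists were chosen with earlier results of these data known. Named were the listed genes, the 5 called genes per direction with the largest change and an FPKM of at least 5 in every replicate of the higher line, the 5 called peaks per direction with a mean of at least 20, runs of at least 5 called peaks and the 3 extreme bins per direction. The very high peak was chosen after its values were seen. Over all features the deviations of same-numbered replicates correlated by at most 0.069, and the numbers were not taken to pair samples. Some listed genes are not reported here.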

Additional observations from a re-analysis of the deposited data

Results flagged for a closer look

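In groups of 5 libraries, a sample was marked when its gap to the nearest other exceeded 0.71 of the group's range, which chance gives in about 1 of 20 groups, and 3 of the 38 groups examined were marked. βTC6 replicate 5 had a chromosome 6 share of 5.62% without the very high peaks, against 5.31% to 5.39% in the other βTC6 libraries. It also had 75.8 normalized reads in the peak nearest to Shfm1, against 44.9 to 47.7. In the 85 to 90 Mb bin αTC1 replicate 5 had a median log2 difference of 0.071 from the αTC1 mean, against -0.0042 to 0.015 in the others. The cause was not tested.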

How the results depend on the processing

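The chromosome 6 ATAC-seq median of -0.79 stayed below 0 under every alternative, at -0.91 with edgeR on recovered reads, -0.96 with only peaks of mean at least 5, -0.86 with a pseudocount of 0.5, -0.48 with a pseudocount of 5 and -0.89 with quantile normalization. The median over all peaks, 0.0011 in the main run, was -0.018, -0.19, 0.0010, 0.00036 and -0.070 in the same order. Called peaks toward βTC6 and αTC1 numbered 445 and 778 with edgeR and 60 and 150 with a pseudocount of 5, and 179 and 686 with quantile normalization, which moves the split. They ranged from 242 to 269 and from 473 to 513 when 1 library was left out, and were 240 and 445 with replicates 1 to 3 only (12.5% and 4.82% of all peaks), 316 and 593 with replicates 4 and 5 only (14.3% and 6.71%) and 351 and 636 with a pseudocount of 0.5 (17.3% and 7.11%). Over the RNA-seq alternatives, keeping genes with at least 10 counts in all raised the tested chromosome 6 genes from 579 to 808 and gave 101 higher and 118 lower past FDR and fold (15.2% and 6.01% of all genes), 158 higher and 474 lower past FDR (37.0% and 32.0% of all genes) and a median of -0.71. ERCC scaling gave 57 higher and 221 lower past FDR and a median of -0.79, and 28 of 101 named genes lost their call. The RNA-seq median ranged from -0.79 to -0.76 without 1 library. Without chromosome 14 in the total, 5 bins fell with the αTC1 percentage at the threshold used to sort them, in place of 3. With the replicate block, the ATAC-seq calls stayed at 258 and 489, and the RNA-seq calls were 95 higher and 397 lower past FDR (37.9% and 35.2% of all genes). Correlations of same-numbered deviations lay between -0.0019 and 0.069 in ATAC-seq and between -0.047 and 0.026 in RNA-seq. The bins with a median below 0 numbered 24 to 27 over the alternatives with 5 Mb bins, in place of 25, so single bins changed sign, and 2 bins changed the sign of r without the very high peaks. In the mixtures, 1 library per composition gives no replicate error, and 1 read is the lowest value in the table, so peaks closed in a line cannot be told from peaks with 1 read.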

Other observations

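Of 557 genes with a promoter peak, counted by sign alone, 10 had a promoter ratio above 0 and an RNA value below 0, of which 7 passed for RNA, and 78 the reverse, of which 47 passed. Scnn1a, a subunit of the epithelial sodium channel, was lower in βTC6 by RNA (1.09 ± 0.0700 in αTC1 and 0.373 ± 0.146 FPKM in βTC6, SD, n = 3) with a promoter log2 ratio of 1.80. Chl1 had a promoter log2 ratio of 1.96 while its RNA had a log2 fold change of -0.46 (edgeR adjusted p = 0.014). Among the 4291 chromosome 6 peaks, 2 held stretches of 30 bases that also occur in the mitochondrial genome, with 75.0% of the stretches in the peak at chr6:9839946-9840154 and 25.1% in the peak at chr6:79768138-79768341.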
